A study of Mus musculus with 21 samples.

Results

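The genes described here are 10 genes used to sort cortical inhibitory neurons into classes, most of them neuropeptide precursors: Pvalb, Sst, Vip, Npy, Lhx6, Cck, Crh, Tac2, Reln and Calb2. They were taken by symbol from the 21872 gene symbols that both count tables share, and all 10 were found in each table. RNA was sequenced from mouse brain of animals given water (control) or trientine (TETA), a copper chelator, and the labels call the TETA condition copper-deficient. There were 6 control and 6 TETA libraries at embryonic day 18.5 (E18.5), and 5 control and 4 TETA libraries at 7 weeks after birth. The series is about copper deficiency and autism-related brain development, and the comparisons ask how these genes differed with TETA at each age and between the ages. The labels name no strain, genotype, dose or duration of treatment, and the protocols name a dissected region (prefrontal cortex) and a sex (male) for 7-week animals alone, so neither is stated for E18.5. The labels do not say whether libraries of a group came from separate animals or litters, and p-values then measure only the spread between these libraries, which may be technical.

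Inhibitory interneurons of the cortex are born outside it, in the ganglionic eminences, and migrate in before birth, and they acquire most of the peptides and calcium-binding proteins that define their classes only as they mature. Neuropeptides are made as precursors, cut by proteases in secretory granules and released alongside GABA. They act on receptors coupled to G proteins. Cck and Crh are also made outside inhibitory neurons, and in the embryo much Reln comes from Cajal-Retzius cells in the outermost layer of the cortex, so none of these levels belongs to interneurons alone.

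Levels are in CPM, the reads of a gene relative to the size of its library, after scaling of library sizes by trimmed mean of M values (TMM). Library totals ran from 14678265 to 24308555 counts at E18.5. At 7 weeks they ran from 17838051 to 24035857. At E18.5 markers of cortical excitatory neurons and forebrain summed to 2575 to 2838 CPM in control libraries, while 11 markers of midbrain, hindbrain and spinal cord summed to 2.50 to 4.04 CPM, with Hoxb2, Hoxb3 and Hoxb5 among those at 0. Y-linked genes summed to under 1 CPM in 2 of 6 control and 3 of 6 TETA libraries at E18.5, and at 7 weeks their lowest sum was 129 CPM. The 2 E18.5 libraries numbered 1-2, 1 of each group, stood apart on the first principal component, at 16.4 and 13.9 with the other 10 libraries at 4.33 or below. In the 7-week libraries the striatal projection neuron markers, 13 genes, summed to 825 to 1026 CPM in control and to 376 to 497 CPM in TETA. Region or library differences of these kinds are given again beside the results that they move with.

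Control levels of all 10 genes differed between the ages: 7 were higher at 7 weeks and 3 were lower, each with no overlap between the 6 E18.5 and 5 7-week control libraries. This was the rule across the transcriptome, since 89.3% of the 14660 genes tested (44% higher and 45.3% lower) had an adjusted p under 0.05 in the quasi-likelihood test of edgeR after Benjamini-Hochberg (BH) adjustment. An unadjusted p under 0.05 was reached by 89.7%, and 79.5% did not overlap. The direction and size of each change are therefore the description, and age cannot be told apart from the region dissected, the sex of the animals and the batch. Pvalb, Vip and Tac2 had too few E18.5 reads to pass the filter of that age. Pvalb and Vip entered the comparison of the ages through the 7-week libraries alone, so their direction was set by the filter. A lower level in bulk RNA can come from fewer cells of a type or from less RNA per cell, and these cannot be told apart here. The median log2 difference of all genes between the ages was -0.02, and it was -0.17 without TMM factors. No direction given for the 10 genes turned under any alternative run.

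**Figure D1:**
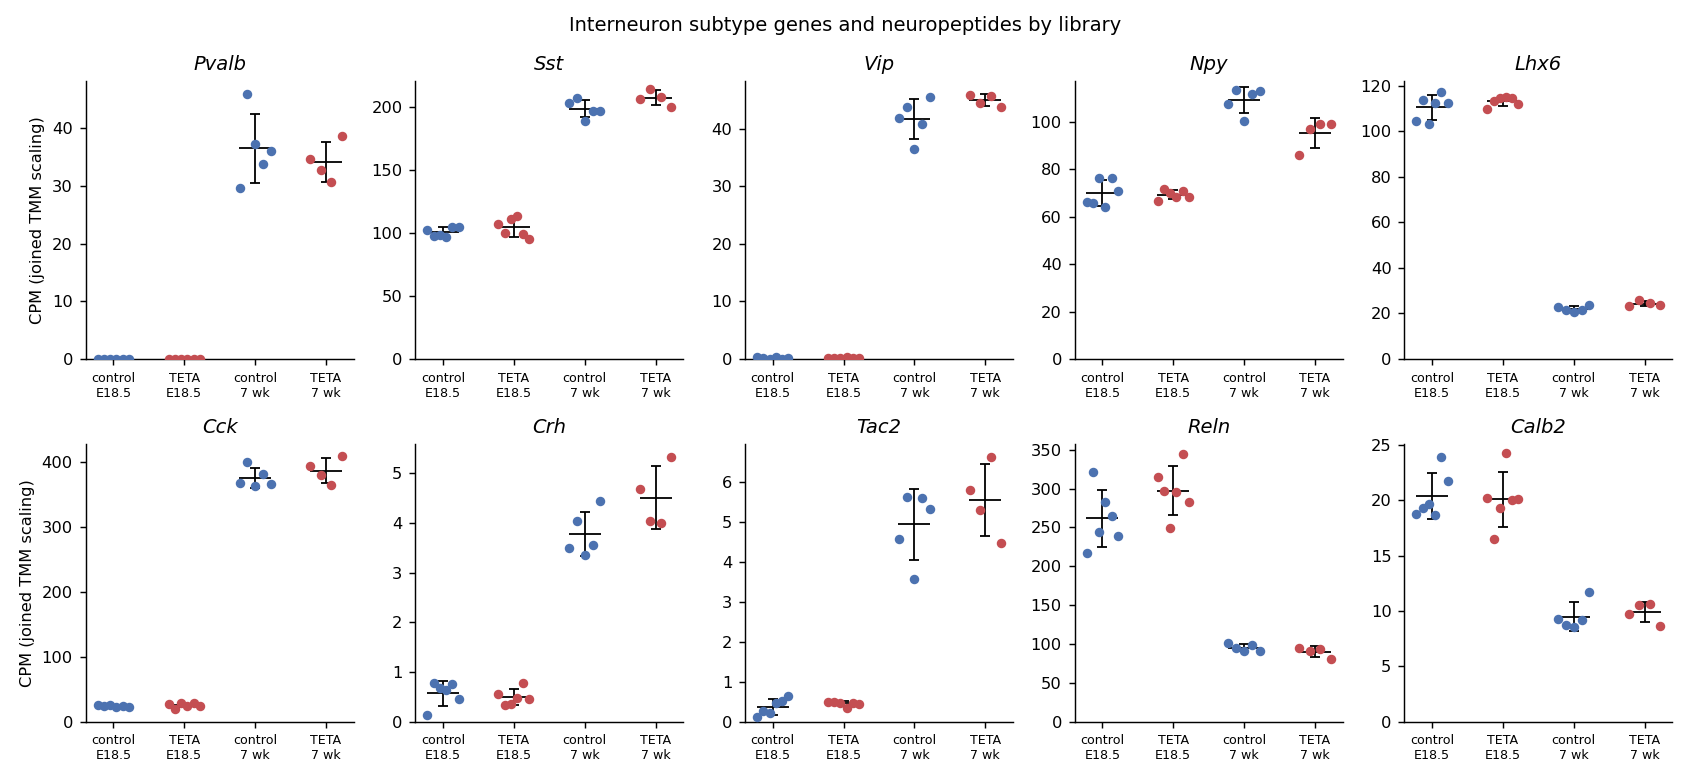
Level of each of the 10 genes in every library, in CPM on a scaling that joins the 2 ages. Points are libraries, horizontal lines are group means and bars are ± 1 SD; control is blue and TETA is red. Pvalb and Vip lie near 0 in all E18.5 libraries, and Lhx6, Reln and Calb2 are the 3 genes that are lower at 7 weeks.

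Lhx6 encodes the transcription factor that interneurons from the medial ganglionic eminence need for their migration and for Sst and Pvalb expression. On the joined scaling its control level was 103 at the lowest, 112 at the median and 117 CPM at the highest library at E18.5, and 22.7, 21.7, 20.5, 21.5 and 23.5 CPM in the 5 libraries at 7 weeks. Every E18.5 library was thus above every 7-week library, with a log2 change of -2.33 (SE 0.044). Lhx6 did not fall alone: of 16 other transcription factors of interneuron birth and identity, 15 were lower at 7 weeks and none was higher, with a median log2 change of -2.02.

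Sst, the precursor of somatostatin, and Npy, the precursor of neuropeptide Y, were already abundant before birth. Sst had a lowest, median and highest control level of 96.7, 101 and 105 CPM at E18.5, and stood at 203, 207, 189, 197 and 197 CPM at 7 weeks. Its log2 change of 0.98 (SE 0.041) is a 1.97-fold increase. Npy went from 64.1, 68.5 and 76.4 CPM (lowest, median and highest) to 108, 113, 100, 112 and 113 CPM, a log2 change of 0.64 (SE 0.047) and the smallest of the 10. Sst and Npy, which are made together in many of the same interneurons, were thus the 2 genes with the smallest difference between the ages, and both were higher at 7 weeks.

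Pvalb, the calcium-binding protein parvalbumin of fast-spiking cells, and Vip, the precursor of vasoactive intestinal peptide, were close to 0 at E18.5. All 6 E18.5 control libraries together held 2 Pvalb reads, against 3761 reads in the 5 control libraries at 7 weeks. That is a ratio of 2267 per unit of library size, with an exact 95% interval of 627 to 18722 that covers counting error only. Vip had 21 reads in all E18.5 control libraries, 1 to 7 in each, and 4296 at 7 weeks, a ratio of 247 with an interval of 161 to 399. At 7 weeks Pvalb stood at 29.6, 45.9, 37.2, 33.8 and 36.2 CPM in the control libraries and Vip at 41.8, 43.7, 36.4, 40.8 and 45.4 CPM, so the spread of Pvalb (SD 5.99 CPM) was the wider.

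Cck, the precursor of cholecystokinin, rose from 23.2, 24.4 and 26.4 CPM (lowest, median and highest) at E18.5 to 367, 399, 362, 381 and 365 CPM at 7 weeks, a 15.4-fold difference (log2 change 3.94, SE 0.058). Tac2, the precursor of neurokinin B, rose from 0.370 ± 0.200 CPM (SD, n = 6) to 4.94 ± 0.882 (n = 5), with a log2 change of 3.66 (SE 0.20). Crh, the precursor of corticotropin-releasing hormone, rose from 0.576 ± 0.249 to 3.78 ± 0.450 CPM, with a log2 change of 2.67 (SE 0.19). Both rest on few reads before birth, 2 to 14 per control library for Tac2 and 2 to 18 for Crh, and control replicate 1-1 had 2 of each.

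Reln, the secreted protein reelin that guides the layering of the cortex, and Calb2, the calcium-binding protein calretinin, were lower at 7 weeks together with Lhx6. Reln had a lowest, median and highest control level of 217, 255 and 322 CPM at E18.5, and stood at 101, 94.6, 91.2, 99.1 and 91.3 CPM at 7 weeks (log2 change -1.45, SE 0.076). Calb2 went from 20.4 ± 2.08 to 9.50 ± 1.30 CPM, with a log2 change of -1.10 (SE 0.090). Over the 10 genes, with Pvalb and Vip included, the BH-adjusted p ran between 1.26e-32 and 8.38e-13 (edgeR quasi-likelihood test). All 6 Cajal-Retzius markers were also lower at 7 weeks, with a median log2 change of -3.77. Their part in the lower Reln was not tested.

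Levels of different genes were compared only after division by exon length, using the union of exons of GENCODE M21 on GRCm38 (mm10). In control libraries at E18.5 the order was Sst (140 CPM per kilobase), Npy (124), Lhx6 (29.9), Reln (22.4), Cck (21), Calb2 (11.7), Crh (0.44), Tac2 (0.42), Vip (0.12) and Pvalb (0.02). The library ranges of Sst and Npy overlapped, as did those of Reln and Cck, and none of the last 4 was apart from its neighbour. At 7 weeks the control order was Cck (323), Sst (276), Npy (193), Pvalb (35.1), Vip (27.2), Reln (8.16), Lhx6 (5.94), Tac2 (5.61), Calb2 (5.45) and Crh (2.86). Here Pvalb overlapped Vip, and Lhx6, Tac2 and Calb2 overlapped in turn, while every other neighbour was apart. Sst and Npy thus kept a place among the first 3 at both ages, and Cck moved from the fifth place to the first.

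**Figure D2:**
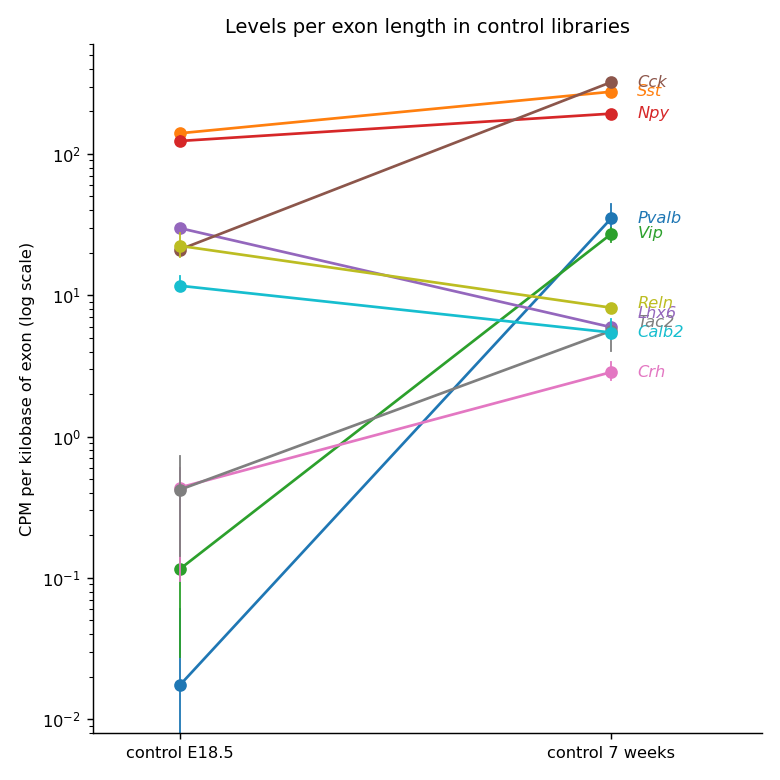
Control level per kilobase of exon at E18.5 and 7 weeks, on a log axis. Points are means of 6 and 5 libraries, vertical lines run from the lowest to the highest library, and a line that leaves the axis at the bottom reaches 0. Cck goes from the fifth place at E18.5 to the first at 7 weeks, and Pvalb and Vip go from the last places to the fourth and the fifth.

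The 10 genes lie on 9 chromosomes. Sst is at chr16:23889573-23890958 (minus strand), Npy at chr6:49822710-49829507 (plus), Vip at chr10:5639218-5647617 (plus), Cck at chr9:121489824-121495694 (minus), Tac2 at chr10:127724478-127731768 (plus), Crh at chr3:19693401-19695396 (minus), Pvalb at chr15:78191114-78206400 (minus), Lhx6 at chr2:36081953-36105408 (minus), Reln at chr5:21884454-22344702 (minus) and Calb2 at chr8:110137502-110168210 (minus). Reads were counted over whole genes, so the levels speak of no single exon. In GENCODE M21, Reln overlaps 4 annotated genes on the opposite strand and 3 on its own, and a small RNA gene lies within Lhx6 on its own strand. How reads over these overlaps were counted is not given in the sources used here.

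Several of these peptide genes are textbook targets of the cAMP response element (CRE), the DNA sequence bound by CREB, which was first described in the Sst promoter. RefSeq promoter windows (GRCm38.p6) were at hand for 8 of the 10 genes, 11 windows in all, and the 250 bases before each start were searched on both strands. The full CRE, TGACGTCA, was in the Sst window, 48 bases before the start, and in 1.55% of all 32851 windows. The CRE core, TGACG, was in the windows of Sst (within its full CRE), Vip and Cck, and in 17.8% of all windows. The AP-1 element, TGANTCA, was in 1 Lhx6 window and in 6.75% of all, and TATAAA, searched on the gene's strand only, was in the Vip window and in 7.59%. None of these was found in the Npy window, which says only that these letters are not there.

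The stretches below show 4 of the 6 peptide genes whose levels rose between the ages, the 3 that hold a CRE or its core and Npy, 5′ to 3′ on the strand of the gene, with the CRE, its core and TATAAA in capitals. They are 30 bases around the CRE of Sst (chr16:23890874-23890903, minus) and the 120 bases before the start of Vip (chr10:5639098-5639217, plus), Cck (chr9:121495695-121495814, minus) and Npy (chr6:49822590-49822709, plus). Npy is shown since it is the 1 gene that differed with TETA.
Sst: gcctccttggcTGACGTCAgagagagagtt
Vip: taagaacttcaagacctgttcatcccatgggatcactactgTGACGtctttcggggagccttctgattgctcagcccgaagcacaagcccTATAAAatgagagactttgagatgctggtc
Cck: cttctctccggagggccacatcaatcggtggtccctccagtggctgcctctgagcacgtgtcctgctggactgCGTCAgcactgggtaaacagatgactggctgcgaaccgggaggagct
Npy: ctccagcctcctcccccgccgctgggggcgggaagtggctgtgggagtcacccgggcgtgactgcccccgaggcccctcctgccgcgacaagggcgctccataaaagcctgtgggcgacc
A match is a description of the sequence, and no binding was measured.

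At E18.5 none of the 7 genes tested changed with TETA, and none had groups that did not overlap. Pvalb, Vip and Tac2 had too few reads to be tested: Pvalb had 2 reads in all control and 3 in all TETA libraries, Vip had 21 and 22, and Tac2 had 48 and 54. Across the transcriptome 0% of 13794 genes passed the adjusted threshold, 660 (4.78%) had an unadjusted p under 0.05, and 0.312% did not overlap between groups. DESeq2 called 10 genes and limma voom with library weights called 8, none of the 7 tested here among them. The median log2 change of the 7 genes was 0.03, beside -0.00 over all genes. Without both libraries numbered 1-2, a choice made after seeing the data, their log2 changes lay between -0.12 and 0.25, and again none was called.

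Lhx6, Sst and Npy had the narrowest intervals of the 7 genes. Sst was at 105 ± 4.05 CPM in control and 109 ± 7.78 in TETA (SD, n = 6 each), a log2 change of 0.05 with a 95% interval of -0.04 to 0.14. Npy was at 72.7 ± 5.79 and 72 ± 1.90 CPM, a log2 change of -0.02 (-0.11 to 0.08). Lhx6 was at 115 ± 5.77 and 118 ± 2.33 CPM, a log2 change of 0.03 (-0.04 to 0.11). For these 3 genes no end of an interval lies further from 0 than 0.14. Cck (0.05, -0.10 to 0.20) and Calb2 (-0.02, -0.18 to 0.15) had wider intervals, and that of Crh (-0.28, -0.91 to 0.35), with 2 to 18 reads per library, was the widest of the 7.

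Reln was the 1 member with an unadjusted p under 0.05 at E18.5. Its lowest, median and highest level was 226, 265 and 334 CPM in control and 259, 309 and 358 CPM in TETA, so the groups overlapped broadly. The log2 change was 0.18 (95% interval 0.02 to 0.34; unadjusted p = 0.0255), and the BH-adjusted p was 0.971 (edgeR quasi-likelihood test). Control replicate 1-2, 1 of the 2 libraries that stood apart, had the highest control level, and control replicate 1-1 the lowest. Without both libraries numbered 1-2 the log2 change of Reln was 0.25 (adjusted p = 0.386 in edgeR's test), and without control replicate 1-1 it was 0.14. The 6 Cajal-Retzius markers, the other genes of that source, summed to 127 to 152 CPM in control and 127 to 155 CPM in TETA, and none of them was called. Most of that sum was Cacna2d2 (81.4 CPM in control) and Ndnf (34.9 CPM), and Ndnf is also in the interneuron list. Of the others, Trp73 (log2 change 0.11, 95% interval -0.03 to 0.26) and Lhx5 (0.12, -0.10 to 0.34) had estimates above 0, and Lhx1 (-0.04) and Ebf3 (-0.03) below.

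At 7 weeks Npy was the only 1 of the 10 genes that passed the adjusted threshold, and it was lower with TETA. A share of 1 in 10 is what the background gives, since 9.96% of the 14240 genes tested passed (5.67% higher and 4.28% lower). These are 808 genes higher and 610 lower, against 1003 and 480 without TMM factors. The 10 genes as a set were therefore called no more often than any others. Npy was also the 1 gene of the 10 whose groups did not overlap, beside 11.2% of all genes. The median log2 change was 0.07, beside 0.00 over all genes, and 4 of the 10 genes had an unadjusted p under 0.05, where 24% of all genes did.

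Npy stood at 102, 107, 95.02, 106 and 107 CPM in the 5 control libraries and at 82.0, 92.4, 94.80 and 94.0 CPM in the 4 TETA libraries. The means were 103 ± 5.14 and 90.8 ± 5.93 CPM (SD), a log2 change of -0.19 (SE 0.046, 95% interval -0.28 to -0.09), which is 12.2% lower. The BH-adjusted p was 0.0121 (edgeR quasi-likelihood test), and it lay between 0.00294 and 0.459 over the alternatives. The gap between the groups was small: control replicate 3 was at 95.02 CPM and TETA replicate 3 at 94.80. TETA replicate 1 was the lowest of all 9 libraries, and without it the log2 change was -0.14 and the adjusted p was 0.053 in edgeR's test. Without control replicate 4, which alone was high in choroid plexus markers, the log2 change was -0.18 and the adjusted p was 0.033.

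**Figure D3:**
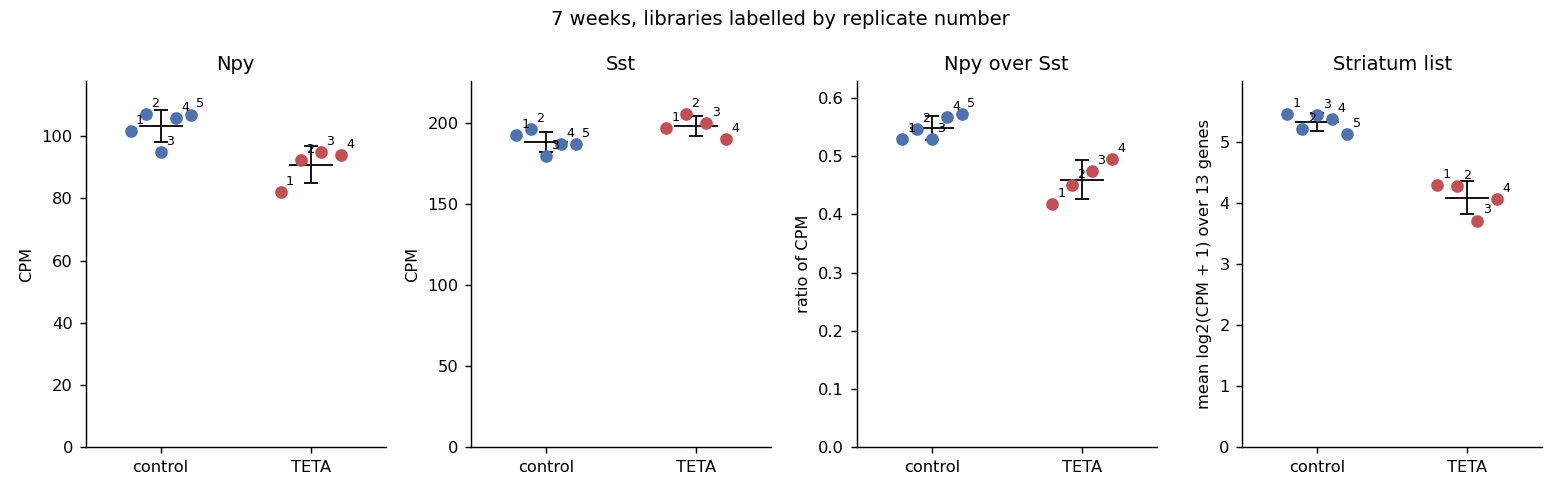
Npy, Sst, their ratio within each library and the striatum score at 7 weeks, by library. Points are libraries with their replicate numbers (5 control in blue, 4 TETA in red), lines and bars are means ± 1 SD. The Npy to Sst ratio and the striatum score do not overlap between groups, and Npy only just does not.

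Sst, which is made by many of the same cells, had an estimate above 0 and did not pass. It stood at 192, 196, 179, 187 and 187 CPM in control and at 197, 205, 200 and 190 CPM in TETA, a log2 change of 0.07 (95% interval 0.00 to 0.14; adjusted p = 0.204 in edgeR's quasi-likelihood test). The ratio of Npy to Sst within a library was 0.529, 0.547, 0.530, 0.568 and 0.572 in control and 0.417, 0.450, 0.474 and 0.495 in TETA, with no overlap. At E18.5 this ratio was 0.692 ± 0.0489 in control and 0.666 ± 0.0532 in TETA, and the groups overlapped. The ratios are given as a description, without a test.

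The striatal markers, like Npy, were lower in the TETA group at 7 weeks. Their score, the mean of log2(CPM + 1) over the 13 genes, was 5.13 to 5.45 in control and 3.71 to 4.29 in TETA libraries, and all 13 genes were lower in TETA with a median log2 change of -1.34. Within the TETA group the order was reversed: from the lowest Npy to the highest, replicates 1, 2, 4 and 3 had scores of 4.29, 4.27, 4.06 and 3.71. Within the control group, replicates 3 and 1 had the lowest Npy and the highest scores (5.44 and 5.45). With the score as a covariate the log2 change of Npy was -0.52 (SE 0.15), its unadjusted p was 0.0021 and its adjusted p 0.459 (edgeR). In that fit 1 gene of the whole transcriptome passed, and the score is nearly the treatment itself, so the 2 cannot be told apart. Npy is also made by interneurons of the striatum, and the part of striatal tissue in its lower level was not tested beyond this fit.

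The other 9 genes gave these bounds at 7 weeks. Lhx6 stood at 21.5, 20.5, 19.4, 20.3 and 22.3 CPM in control and at 22.1, 24.7, 23.6 and 22.3 CPM in TETA, with a log2 change of 0.15 (95% interval 0.03 to 0.27; unadjusted p = 0.0163, adjusted p = 0.106 in edgeR's quasi-likelihood test). Vip stood at 39.4 ± 3.23 and 42.8 ± 1.16 CPM (SD, n = 5 and 4), a log2 change of 0.12 (0.01 to 0.23; adjusted p = 0.183 in the same test). Both estimates were above 0, and control and TETA libraries overlapped in each gene. Pvalb (-0.09, -0.28 to 0.10) and Calb2 (0.07, -0.14 to 0.27) had intervals that spanned 0 with room on either side, and Calb2 was at 0.16 without control replicate 5 and at 0.03 without TETA replicate 3. Cck (0.05, -0.02 to 0.13), at 355 ± 14.3 CPM in control and 368 ± 16.3 in TETA, was bounded the most tightly after Sst.

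Crh stood at 3.57 ± 0.428 CPM in control and 4.30 ± 0.584 in TETA (log2 change 0.26, 95% interval -0.01 to 0.53; adjusted p = 0.231 in edgeR's quasi-likelihood test), the largest point estimate of the 10. Tac2 stood at 4.68 ± 0.834 and 5.30 ± 0.890 CPM (0.18, -0.11 to 0.47). Reln, whose estimate at E18.5 had been above 0, stood at 90.4 ± 4.28 and 86.2 ± 6.62 CPM (-0.07, -0.17 to 0.03). All 3 had libraries of 1 group within the range of the other, and Crh and Tac2 rest on 59 to 148 reads per library.

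**Figure D4:**
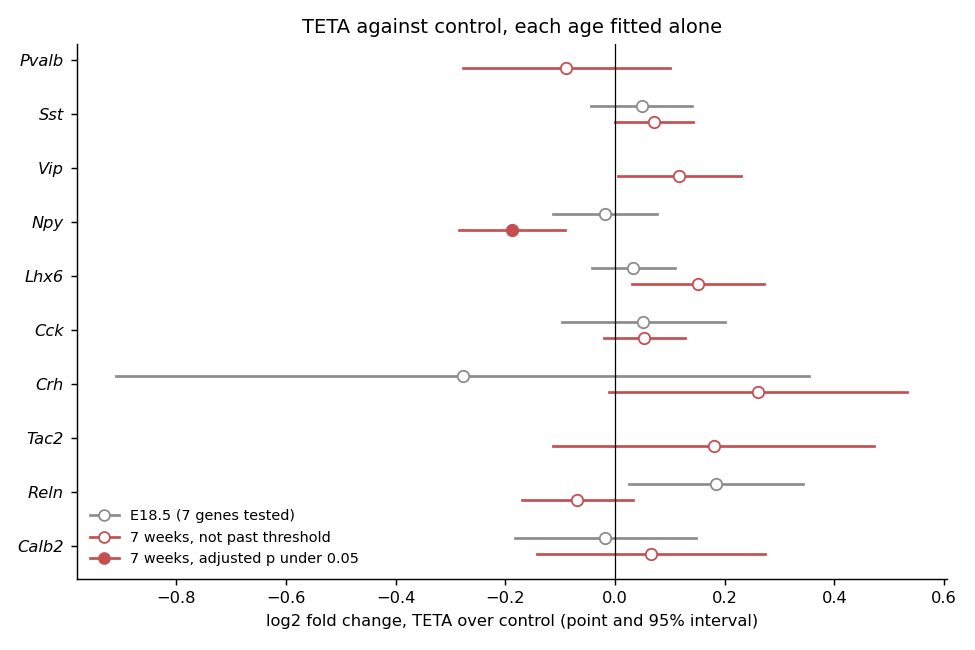
Log2 fold change of TETA over control for each of the 10 genes, with points for the estimate and lines for the 95% interval, E18.5 in grey and 7 weeks in red. The filled point, Npy at 7 weeks (-0.19), is the only estimate with an adjusted p under 0.05, and Pvalb, Vip and Tac2 have no E18.5 estimate.

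The difference between the ages in the TETA effect was tested as an interaction in 1 fit over all 21 libraries. None of the 10 genes passed the adjusted threshold, where 3.1% of 14660 genes did (1.67% higher and 1.43% lower), and 2 of the 10 had an unadjusted p under 0.05, beside 15.9% of all genes. Over all genes 245 were higher and 209 lower, against 413 and 161 without TMM factors. Npy had the smallest p: its log2 effect at 7 weeks was below that at E18.5, a difference of -0.18 (SE 0.069, unadjusted p = 0.0130, adjusted p = 0.163 in edgeR's quasi-likelihood test). Reln followed at -0.26 (SE 0.11, unadjusted p = 0.0214, adjusted p = 0.209 in the same test). Without both E18.5 libraries numbered 1-2 the value for Reln was -0.33 and its adjusted p 0.0467 in that test, past the threshold, while that of Npy was -0.16 (adjusted p = 0.225). For Pvalb, Vip and Tac2 the E18.5 counts are too low for the difference to be read.

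Npy's pattern over all 21 libraries was most like that of Rragc, a Rag GTPase that signals amino acid supply to mTORC1, among 14660 genes. The mean absolute difference of their centred log2(CPM + 1) values was 0.0531, and Rragc changed at 7 weeks by -0.11 (adjusted p = 0.0439 in edgeR's quasi-likelihood test). Reep2, an endoplasmic reticulum shaping protein, followed at 0.0626, and its 7-week value was -0.09 (adjusted p = 0.114 in the same test). Both genes, like Npy, were higher at 7 weeks than at E18.5 in control libraries, with log2 changes of 0.60 for Rragc and 0.70 for Reep2. They were picked for their closeness to Npy over these same libraries. Their shared directions with age and with TETA follow from that choice and are no separate result.

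The lists around the 10 genes are read at 7 weeks against the 9.96% of all genes called (5.67% higher and 4.28% lower), and were described without a test of any list. Of 23 genes for GABA synthesis and interneuron identity, 3 fell, 1 rose and 19 did not pass, with a median log2 change of -0.05. Slc32a1, which loads GABA into vesicles, fell from 110 ± 3.55 to 88.5 ± 6.23 CPM (log2 change -0.31, SE 0.044, adjusted p = 0.000136 in edgeR's quasi-likelihood test). Gad2, a GABA-synthesizing enzyme, fell from 177 ± 4.15 to 158 ± 4.62 CPM (-0.16). Calb1, the calcium-binding protein calbindin, fell by 0.15 on the log2 scale, and Kcnc2, a potassium channel of fast-spiking cells, rose by 0.17. Slc32a1, Gad2 and Calb1 are made by striatal neurons as well, whose markers fell in the same libraries, and their part in these changes was not tested. Among the transcription factors of interneuron birth and identity, Dlx6 fell (-0.51).

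Among 17 other peptide precursors and granule proteins, 16 were tested at 7 weeks, of which 6 fell and 2 rose (median log2 change -0.14), beside 4.28% and 5.67% of all genes. Among the genes called, the largest falls were in Penk and Tac1, peptides that striatal projection neurons make. Penk, the enkephalin precursor, fell from 123 ± 22.1 to 41.3 ± 8.22 CPM (log2 change -1.58, SE 0.12), and Tac1, the substance P precursor, fell from 27.0 ± 3.11 to 13.8 ± 1.99 CPM (-0.96). Pdyn, the dynorphin precursor, fell by 0.37 and Scg2, a granule protein, by 0.16 on the log2 scale. Cort, the precursor of cortistatin, a relative of somatostatin found in cortical interneurons, fell from 5.38 ± 0.394 to 3.93 ± 0.552 CPM (-0.45, SE 0.12). Grp, the gastrin-releasing peptide precursor, rose by 0.52. Nts, the neurotensin precursor, was at 0.674 ± 0.173 CPM in control and 0.312 ± 0.180 in TETA (-1.13) and just missed the threshold (adjusted p = 0.054 in edgeR's test). Penk and Tac1 are also in the striatum list, so their falls and that of the list are the same measurement.

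**Figure D5:**
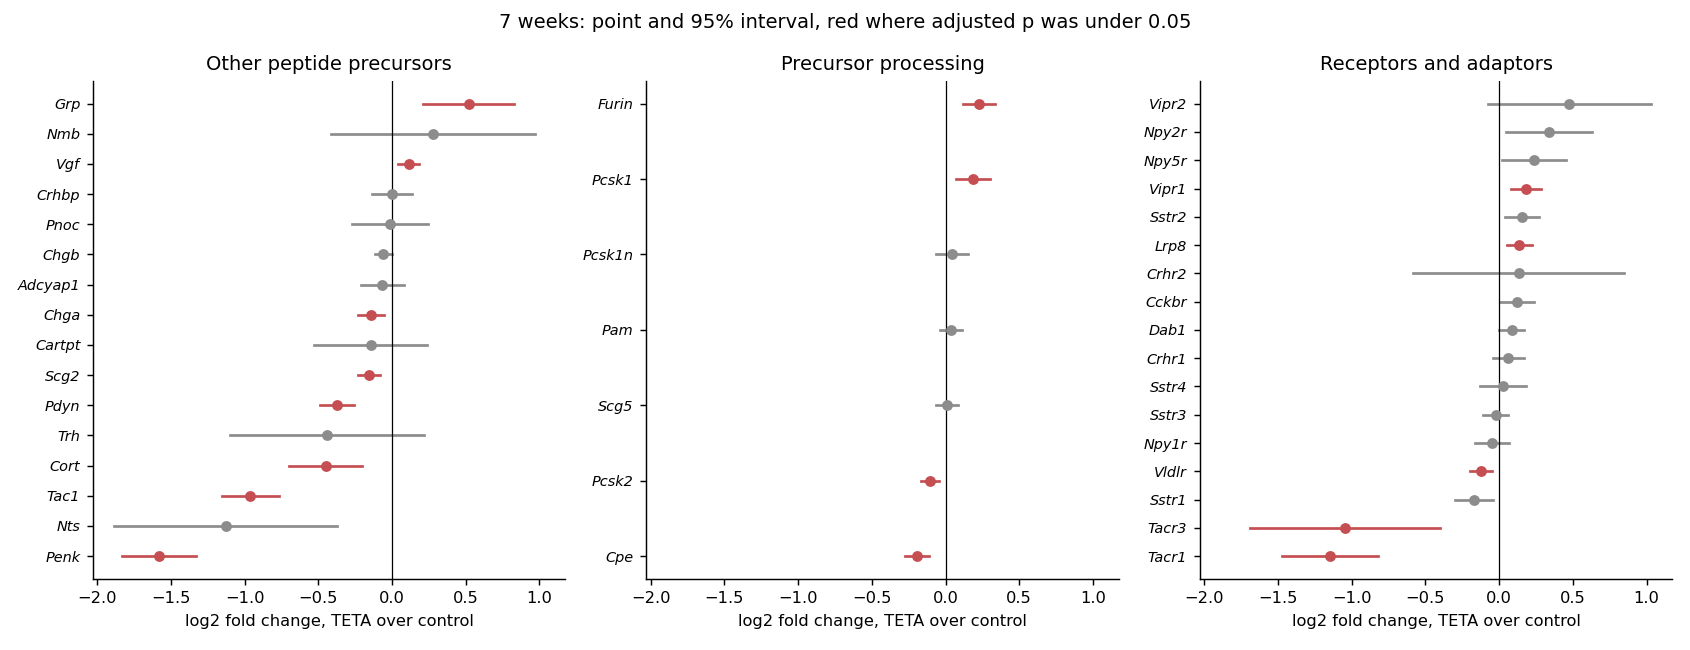
Log2 fold change of TETA over control at 7 weeks for other peptide precursors (16 genes), precursor processing (7) and receptors or adaptors (17), with 95% intervals. Red marks an adjusted p under 0.05; Penk, Tac1, Tacr1 and Tacr3 are the called genes with the largest falls, and the red points of the processing panel lie within 0.23 of 0.

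Of 7 genes for the processing of peptide precursors, 2 fell, 2 rose and 3 did not pass, beside 9.96% of all genes called. Cpe, the carboxypeptidase that trims peptide ends (-0.19), and Pcsk2, a prohormone convertase (-0.10), fell, while Furin (0.23) and Pcsk1 (0.19), also convertases, rose. Of 17 receptors and reelin adaptors tested, 3 fell and 2 rose, where 9.96% of all genes were called in either direction. Tacr1, a substance P receptor found on interneurons of both cortex and striatum, fell from 4 ± 0.213 to 1.83 ± 0.477 CPM (log2 change -1.15, SE 0.16, adjusted p = 8.45e-05 in edgeR's quasi-likelihood test), with no overlap. The striatal markers fell in the same libraries, and their part in this was not tested. Nos1, the nitric oxide synthase of interneurons that also carry Tacr1, had a mean of 49.0 CPM without TETA and 44.7 CPM with it and did not pass (-0.13, adjusted p = 0.180 in edgeR's test). Tacr3, the neurokinin B receptor, had a mean under 1 CPM in both groups and fell by 1.05, and Vldlr, a reelin receptor, fell by 0.12. Vipr1, a receptor for vasoactive intestinal peptide (42.0 ± 3.22 to 47.7 ± 0.539 CPM, 0.18), and Lrp8, the other reelin receptor (0.14), rose. The Npy receptors tested, Npy1r (-0.05), Npy2r (0.34) and Npy5r (0.23), did not pass the threshold (adjusted p = 0.637, 0.142 and 0.170 in the same test).

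No gene of these lists was called at E18.5. The smallest unadjusted p among the peptides was 0.00620, for Vgf, a granule protein, with a log2 change of 0.18 and an adjusted p of 0.801 (edgeR quasi-likelihood test). Among the remaining interneuron and peptide lists the smallest was that of Dlx1 for transcription factors (-0.11), Crispld2 for interneuron markers (0.39), Pam for processing (-0.08) and Vldlr for receptors (0.07), all with an adjusted p of 0.996 in that test. Of the markers of other cells, the endothelial genes had the smallest p at E18.5: Kdr (log2 change 0.25, unadjusted p = 9.63e-05, adjusted p = 0.133 in edgeR's test), Flt1 (0.22) and Pecam1 (0.22) were above 0 and Cldn5 (-0.07) below. Endothelial markers summed to 119 to 135 CPM in control and 134 to 149 CPM in TETA. Of the 13 striatal markers at E18.5, Rarb (-0.14) and Adora2a (-0.14) had the smallest p, each with an adjusted p of 0.874 in that test. The 6 astrocyte markers summed to 4668 to 5293 CPM in control and 4266 to 4610 CPM in TETA at 7 weeks, where Slc1a2 and Aldh1l1 each fell by 0.21. Cortical excitatory markers summed to 2427 to 2589 and 2431 to 2543 CPM, with 1 of 11 genes higher (Neurod2) and 2 lower (Bcl11b and Emx1). Among endothelial and choroid plexus markers Flt1 rose (0.22) and Clic6 fell (-1.60), and choroid markers summed to 58.5 CPM in control replicate 4 alone. The Y-linked Eif2s3y rose (0.26), and no gene of the hypothalamic, midbrain and hindbrain, oligodendrocyte, microglia, red blood cell or Cajal-Retzius lists was called at 7 weeks. The part of these cells in the results above was not tested.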

How the data were processed

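Per the file headers, the authors deposited raw counts for each gene symbol in 2 tables, 1 per age. Alignment with STAR 2.7.1a to mm10 and counting with featureCounts 2.0.1 are named in the submitters' processing notes; the annotation and the strand setting are not given in the sources used here. The libraries were stranded mRNA libraries (TruSeq), per the labels' protocols. At E18.5, 1940 genes at 0 in control replicate 1-1 held only multiples of 11 and were divided by 11; none of the 10 genes was among them, and they held at most 0.0756% of a library's deposited counts. Replicate libraries differed beyond counting noise (lowest chi-square per gene 2.30).

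Each age was fitted alone, and all 21 libraries together for the ages, after filterByExpr (minimum count 10) and TMM scaling, with edgeR 4.0.16's quasi-likelihood test (R 4.3.3) and BH adjustment over all genes tested at 0.05. Joined levels set 2 tables side by side that the authors made separately. CPM were computed from the deposited counts with the same factors. Alternatives were DESeq2 1.42.0, limma 3.58.1 voom with library weights, no TMM factors, no filter or a mean of 50 counts, counts not divided by 11, Y-linked and striatal scores as covariates, replicate blocks, each library left out, and both libraries numbered 1-2 left out. SE is the log2 fold change over the square root of F. The fits were first tested on simulated counts.

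The 10 genes and all lists were chosen with earlier results of these data known. Named beside them are, per list, the genes past the threshold with TETA (up to 6 by p, otherwise the smallest p), and the 2 genes most like a member past the threshold at 7 weeks. Some genes of the lists are not reported here.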

Additional observations from a re-analysis of the deposited data

Results flagged for a closer look

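In 34 groups of 4 to 6 libraries checked for a library far from the rest, 1 was found, where chance gives 1.7. Calb2 in control replicate 5 at 7 weeks was at 11.2 CPM with the other 4 libraries at 8.11 to 8.76, a gap of 0.786 of the group's range beside a critical value of 0.710.

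Of 92 genes (the 10 described above and the other interneuron, peptide, processing and receptor lists), 11 had a TETA effect that differed between the ages in edgeR's quasi-likelihood interaction test, with adjusted p between 1.89e-08 and 0.0485. Over all genes 3.1% passed that test. The log2 effect at 7 weeks was below that at E18.5 for Nkx2-1 (-2.79), Lhx8 (-2.61), Penk (-1.53), Tacr1 (-1.08), Tac1 (-0.998), Dlx6 (-0.58), Pdyn (-0.42), Slc32a1 (-0.31), Cpe (-0.21) and Vldlr (-0.20), and above it for Grp (0.69). Nkx2-1, a transcription factor of the medial ganglionic eminence, was at 9.66 and 9.49 CPM in control and TETA at E18.5. At 7 weeks it had 4 to 14 reads per control library and 0 to 3 per TETA library, and Lhx8, a factor of forebrain cholinergic and inhibitory neurons, had 5 to 15 and 1 to 2, so both were below the filter there. The striatum list differed likewise, with 12 of 13 genes below.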

How the results depend on the processing

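Of 677 values of the 10 genes under the alternatives, 651 kept their direction and side of the threshold, and those between the ages kept theirs in all 169. At E18.5 the count of genes called (0) became 10 with DESeq2, 8 with library weights, 0 to 7 leaving out each library (3 without control 3-2 and 7 without TETA 1-2), and 7 without both libraries numbered 1-2, an alternative chosen after seeing the data. At 7 weeks the count (1418) became 1 with the striatum score as a covariate and 927 to 1392 leaving out each library, the lowest without TETA replicate 3; the interaction count (454) became 290 to 622, the lowest again without that library. Npy at 7 weeks (-0.19) was -0.52 with the covariate and -0.22 to -0.14 leaving out each library. That covariate also turned Vip (-0.12), Tac2 (-0.57), Calb2 (-0.34) and Reln (0.000586). Leaving out each library turned Npy (-0.0433 to 0.0110) and Calb2 (-0.0877 to 0.0366) at E18.5, Pvalb (-0.158 to 0.0100) at 7 weeks, and the interaction of Sst (-0.0150 to 0.0380) and Cck (-0.0649 to 0.0308); Calb2 at E18.5 also turned without the pair 1-2 (0.0197), and the interaction of Cck without TMM factors (0.0269). The causes were not tested. Correlations of same-numbered libraries were mixed at E18.5 (-0.275 to 0.284) and near 0 at 7 weeks (-0.0692 to -0.0295). Both E18.5 libraries numbered 1-2 stood apart together, so these values cannot settle whether the replicate numbers pair libraries. With a replicate block 0 genes were called at E18.5, 1072 at 7 weeks and 472 in the interaction. In that fit Npy at 7 weeks had an adjusted p = 0.037 (edgeR). No paired analysis was possible between the ages because they share no numbers. Depth limits Pvalb, Vip, Tac2 and Crh at E18.5.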
